A study of Mus musculus with 2 samples.

Results

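Epcam and 4 cadherin genes, Cdh1, Cdh2, Cdh3 and Cdh16, were followed in sorted mouse lung cells of postnatal day 10 (P10) and of the embryonic stage E18.5, shortly before birth. The 5 genes were chosen by name from the 32285 genes listed in each library. All 5 had UMIs (unique molecular identifiers, 1 per captured transcript) in both libraries. There was 1 library per time point, so no difference between the time points has a replicate check, no p-value is given, and every interval printed covers counting error only. Levels are given as CPM, the UMIs of a gene per 1000000 UMIs in a pool of cells, where each class of a library was pooled. Library preparation captured transcript ends, and levels of different genes are not ranked against each other.

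Both libraries came from mice that carry Cdh16CreERT2, a recombinase under the control of Cdh16 that acts after tamoxifen, together with a tdTomato reporter that it switches on. The labels give the genotype as Cdh16CreERT2;tdTomatoflox/flox for both samples, while the design text gives Cdh16CreERT2/wt and R26-tdTomatoflox/wt. Pregnant females received tamoxifen from E12.5, by injection or in the diet, and the route is not told for either library. There was no group without tamoxifen and no group of unlabelled cells. Dissociated lung cells that were tdTomato-positive within the CD326-stained population were sorted, CD326 being the protein product of Epcam. Epcam was therefore a gene of the sort and Cdh16 the gene that drove the label, and the presence of their transcripts is not a finding by itself. The labels name both tissues embryonic lung, the P10 sample included, and both are given as batch 1. The number of animals pooled is not stated there. The matrices hold no row for the reporter or the recombinase, so the label itself could not be read in the RNA.

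Classical cadherins are single-pass membrane proteins that bind their like on neighbouring cells through calcium-dependent extracellular repeats, and their cytoplasmic tails hold beta-catenin and p120-catenin at the adherens junction. Cdh1 encodes E-cadherin, the principal cadherin of epithelia, Cdh2 encodes N-cadherin of neural, muscle and mural cells, and Cdh3 encodes P-cadherin, known from basal epithelial layers and the placenta. Cdh16 encodes kidney-specific cadherin, which belongs to the 7D group, has a short tail without the catenin-binding region and is best known from kidney tubule and thyroid. Epcam encodes a membrane glycoprotein of simple epithelia that associates with claudin-7 and tetraspanins and is cut by proteases at the cell surface. In the lung, alveolar type 1 (AT1) cells form the thin gas-exchange surface and alveolar type 2 (AT2) cells make surfactant, and both are joined by E-cadherin junctions.

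In the annotation of the mm10 assembly (GENCODE vM21), Cdh16 lies at chr8:104601911-104624396 on the minus strand. Cdh3 lies at chr8:106510891-106557297 and Cdh1 at chr8:106603351-106670246, both on the plus strand and 46.1 kb apart. Epcam lies at chr17:87635979-87651129 on the plus strand. Cdh2 spans 220.4 kb, and an antisense gene, Gm15485, overlaps it. Gm15485 had 0 UMIs in the kept cells of both libraries, against 320 UMIs of Cdh2 at P10 and 258 at E18.5.

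The promoter of Epcam is shown as the 1 promoter of the 5 genes matched in the reference table. A further reason is that the lists of partner genes held Zeb and Snai genes, whose proteins bind E-boxes of the CAGGTG type. The sequence is the 250 bases before the start of the gene at chr17:87635729-87635978 on the plus strand of GRCm38.p6, from RefSeq. Capitals mark matches to CAGGTG on either strand, read as CACCTG on the other one.
Epcam: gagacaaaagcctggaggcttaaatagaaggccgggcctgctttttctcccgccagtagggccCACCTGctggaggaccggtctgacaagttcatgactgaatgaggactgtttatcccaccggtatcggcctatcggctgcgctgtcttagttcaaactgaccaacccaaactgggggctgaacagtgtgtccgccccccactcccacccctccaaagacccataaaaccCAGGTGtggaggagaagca
The 2 matches begin 187 and 19 bases upstream of the start. Over the 300 bases held for each promoter, 250 before to 50 after the start, 6640 of 32851 promoters (20.2%) had at least 1 match and 946 (2.88%) had 2 or more. A match is a run of letters and not a shown binding site.

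The filter on cells asked for 500 genes, 1000 UMIs and no more than 20% of UMIs from mitochondrial genes. This left 14086 of 14503 barcodes at P10 (median depth 10250.5 UMIs) and 12027 of 12739 at E18.5 (median depth 8959 UMIs). The libraries shared 59 barcodes. Cells were clustered without the 5 genes, and clusters were named from markers, so the level of the 5 genes in a class was not used to define it. Both samples are labelled as lung alveolar epithelial cells. By their markers, 78.4% of kept cells at P10 and 65.1% at E18.5 fell in alveolar classes. Airway classes held 0.887% at P10 and 5.75% at E18.5, and blood-lineage classes (myeloid cells, neutrophils and lymphocytes) held 12.9% at P10 and 12.4% at E18.5, so the label did not cover every sorted cell. AT1-like cells formed 1 cluster of 66 cells at P10, led by Rtkn2 and Hopx, and 3 clusters with 3749 cells at E18.5. All 12 AT1 markers were raised in the P10 cluster, which also carried AT2 RNA, with AT2 markers at 0.451 on a scale where 1 is the top cluster. No cluster at P10 was named AT1-like with a stricter cell filter, with finer clusters or with the 5 genes left among those clustered.

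Epcam was lower in the P10 library than in the E18.5 library in each of the 12 sets of cells compared, all kept cells included. In AT2-like cells it stood at 194 CPM (95% Poisson interval 191 to 196, 9314 cells) at P10, against 346 CPM (338 to 354, 2099 cells) at E18.5. The P10 over E18.5 ratio was 0.560 (0.546 to 0.575), short of the 2-fold size used here to call a change. AT1-like cells had 189 CPM (162 to 220, 66 cells) at P10 and 379 CPM (371 to 387, 3749 cells) at E18.5. Their ratio of 0.5004 (0.427 to 0.583) lay just short of 2-fold, where 13% of measured genes were at least 2-fold lower at P10. Ciliated-like cells, which move mucus along the airway, had 256 CPM (227 to 287, 69 cells) at P10 and 449 CPM (432 to 465, 451 cells) at E18.5, a ratio of 0.570 (0.503 to 0.644). Among the classes with an epithelial name, only club-like cells, the secretory cells of the airway, passed 2-fold, with 183 CPM (163 to 205, 56 cells) at P10 and 402 CPM (379 to 426, 220 cells) at E18.5. Their ratio was 0.455 (0.401 to 0.516), in a comparison where 14.4% of measured genes were at least 2-fold lower at P10. The club-like call was lost when the 20 most abundant and the mitochondrial genes were left out of the totals (0.556) and against genes of similar length (0.544). Outside the epithelium, mesothelial-like cells had 51.0 CPM (34.9 to 72.0) at P10 and 136 CPM (111 to 165) at E18.5, a ratio of 0.375 (0.244 to 0.563), where 12.4% of genes were lower. Endothelial-like cells had 86.8 CPM (79.6 to 94.6) at P10 and 192 CPM (179 to 207) at E18.5, a ratio of 0.451 (0.403 to 0.505), where 8.24% of genes were lower. The blood-lineage cells without alveolar RNA, described below as background, had 79.8 CPM at P10 and 151 CPM at E18.5. Mesothelial-like levels were not above these. The endothelial-like level was 1.09-fold (0.971 to 1.22) the background at P10 and 1.27-fold (1.15 to 1.41) at E18.5. These ratios are therefore not read as a change of Epcam within either class.

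Over all kept cells, 2 of the 5 genes reached 10 CPM, Epcam and Cdh1, and neither passed 2-fold. Of all measured genes in that comparison, 13.5% were at least 2-fold lower at P10 and 12.1% at least 2-fold higher. In AT2-like cells the same 2 genes were measured and again neither passed 2-fold, where 9.37% of genes were lower and 15.5% higher. The Epcam ratio in AT2-like cells became 0.490 when the libraries were scaled by the median ratio of all genes, which puts it just past 2-fold lower.

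The level of Epcam was even among clusters of 1 library that had an alveolar name. Over the 8 alveolar clusters at P10 it lay between 186 and 224 CPM, with the transitional cluster, led by Sprr1a, Areg and Sfn, at the top. Over the 7 alveolar clusters at E18.5 it lay between 346 and 381 CPM, a 1.10-fold range across AT1-like, AT2-like and mixed clusters. No cluster named alveolar at P10 reached the lowest one so named at E18.5. Unnamed clusters of E18.5 with 11 of 12 and 10 of 12 AT2 markers raised lay outside the E18.5 range. The first, of 234 shallow cells, had 227 CPM (190 to 270), and its interval held the P10 transitional level. The second, of 382 cells, had 409 CPM (394 to 425). An unnamed P10 cluster of 178 shallow cells with 5 of 12 raised had 175 CPM (134 to 224). By class, the order at P10 was ciliated-like (256 CPM), transitional (224 CPM, 218 to 230), AT2-like (194 CPM), AT1-like (189 CPM) and club-like (183 CPM). The intervals of ciliated-like and transitional cells overlapped, as did those of AT2-like, AT1-like and club-like cells, and the upper end for AT1-like cells lay within the transitional interval. At E18.5, below neuroendocrine-like cells, the order was ciliated-like (449 CPM), club-like (402 CPM), AT1-like (379 CPM), mixed AT1 and AT2 (363 CPM, 357 to 369) and AT2-like (346 CPM). Here the only neighbours with overlapping intervals were club-like and AT1-like cells.

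The highest Epcam level of any cluster was in neuroendocrine-like cells, the rare sensory and secretory cells of the airway, with 825 CPM (734 to 924) from 21 cells at E18.5. This was 2.39-fold (2.12 to 2.68) the AT2-like level of the same library, where 21.6% of genes were at least 2-fold higher in the neuroendocrine-like cells. The value rests on few cells, and at equal depth the variance of their counts was 3.42 times the mean. Without the deepest 5% of cells it was 1081 CPM in the 17 cells left. A neuroendocrine-like cluster was not found at P10.

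**Figure D1:**
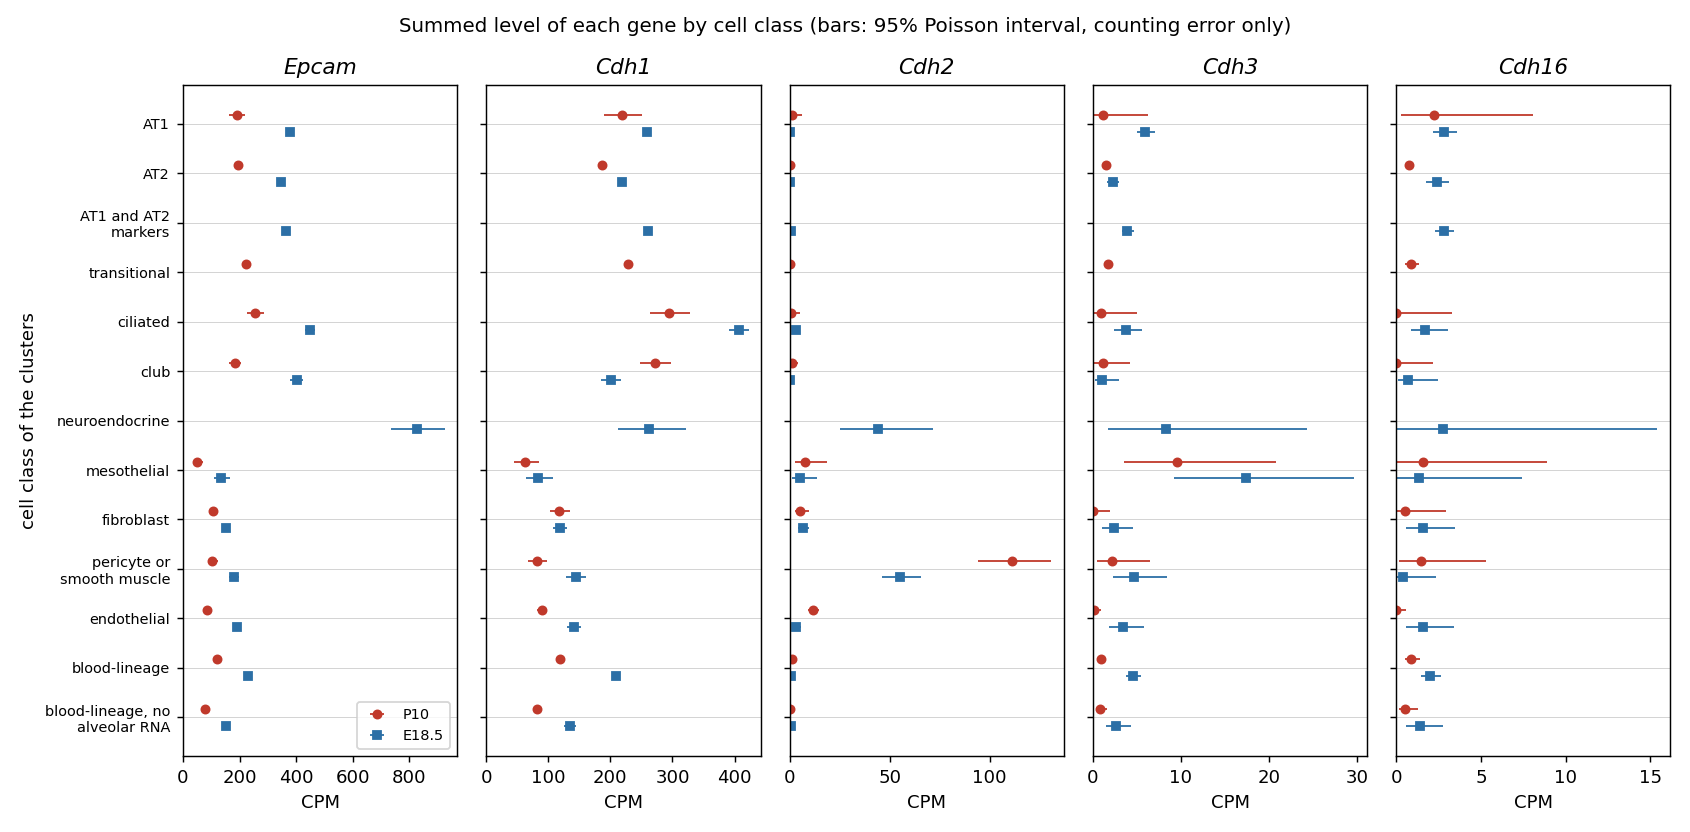
Level of each gene in CPM (x axis, linear, a separate scale for each gene) by cell class (y axis), with P10 as red circles above E18.5 as blue squares and 95% Poisson intervals for counting error as bars. Epcam and Cdh1 are high in every epithelial class and not at 0 elsewhere, while Cdh2 stands out in pericyte or smooth muscle-like cells (111 CPM at P10 and 55.4 CPM at E18.5).

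Blood cells are mostly not known for Epcam or E-cadherin, so their level was taken as the background in a droplet. These cells had passed the same sort within the CD326-stained population, so their Epcam level may not be a neutral background. With no group of unlabelled cells, the part of the sort in this level was not tested. Folds over these cells, and ratios with their level taken off, share this limit. Epcam stood at 121 CPM (116 to 126, 1817 cells) at P10 and at 230 CPM (225 to 236, 1494 cells) at E18.5 in these cells. Many of them lay in clusters counted as carrying alveolar RNA, 453 cells at P10 and 1126 at E18.5. The others are called blood-lineage cells without alveolar RNA, a name for their clusters only, since they were not free of such RNA. Sftpc, a surfactant gene of AT2 cells, stood at 49632 CPM at P10 and 23756 CPM at E18.5 in them. In AT2-like cells it stood at 149328 CPM at P10 and 142822 CPM at E18.5. In the blood-lineage cells without alveolar RNA, Epcam stood at 79.8 CPM (74.1 to 85.8) at P10 and at 151 CPM (141 to 161) at E18.5. The Epcam ratio was 0.529 (0.478 to 0.584), and 0.258 with a stricter cell filter. The lower level at P10 was thus also seen in cells taken as background. All 368 of these cells at E18.5 were myeloid-like. The 1364 at P10 also held T, NK or ILC-like (415), B-like (347) and neutrophil-like (303) cells. Cell type and time point cannot be told apart in this ratio, or in ratios with this background taken off. With that background taken off, the P10 over E18.5 ratio of AT2-like cells was 0.585. Myeloid-like cells alone had a P10 over E18.5 ratio of 0.567 (0.536 to 0.601) for Epcam and 0.625 (0.590 to 0.663) for Cdh1. That comparison is matched by class name only and includes clusters carrying alveolar RNA.

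AT2-like cells exceeded blood-lineage cells without alveolar RNA by 2.43-fold (2.25 to 2.62) at P10 and by 2.29-fold (2.13 to 2.46) at E18.5 for Epcam. For Cdh1 the excess was 2.29-fold (2.12 to 2.46) at P10 and 1.62-fold (1.501 to 1.75) at E18.5. Of all measured genes, 11.1% at P10 and 8.94% at E18.5 were at least 2-fold higher in AT2-like than in these blood-lineage cells.

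The background was uneven. Over the 8 blood-lineage clusters at P10, Epcam lay between 37.5 CPM in a T, NK or ILC-like cluster of 415 cells and 172 CPM in another T, NK or ILC-like cluster of 122 cells that carried alveolar RNA. Cdh1 in the same clusters was 30.7 and 166 CPM. Over the 5 blood-lineage clusters at E18.5, Epcam lay between 101 and 292 CPM. The 415 cells had a median of 4285 UMIs and the 122 cells a median of 15053 UMIs. Other clusters did not follow depth throughout. The 145 myeloid-like cells with a median of 10769 UMIs had 42.9 CPM of Epcam. The 303 neutrophil-like cells with a median of 2598 UMIs had 98.6 CPM. Myeloid-like clusters with medians of 21672.5 and 20727 UMIs, which carried alveolar RNA, had 154 and 152 CPM. No doublets were removed here, and the part of depth, of doublets and of free RNA in these levels was not tested.

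Epcam was also set against Sftpc, the surfactant protein C gene and an abundant AT2 transcript. At P10, Epcam had 1.30 UMIs (1.28 to 1.31) per 1000 UMIs of Sftpc in AT2-like cells and 1.85 (1.58 to 2.15) in AT1-like cells. In the blood-lineage cells without alveolar RNA it had 1.61 (1.49 to 1.73), in endothelial-like cells 1.54 (1.41 to 1.67) and in fibroblast-like cells 1.51 (1.31 to 1.73). Ciliated-like cells had 5.39 (4.78 to 6.05) and club-like cells 3.18 (2.84 to 3.55). At E18.5 the value was 2.42 (2.37 to 2.48) in AT2-like and 45.2 (44.2 to 46.2) in AT1-like cells. In the blood-lineage cells without alveolar RNA it was 6.35 (5.93 to 6.80), in fibroblast-like cells 5.90 (5.42 to 6.403) and in endothelial-like cells 4.82 (4.48 to 5.18), each above the AT2-like value.

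Detection was compared after each cell had been thinned at random to 3000 UMIs, which left out 823 shallower cells at P10 and 1332 at E18.5. Epcam then had a UMI in 43.1% (42.0 to 44.1, 95% binomial interval) of AT2-like cells at P10 and in 63.0% (60.9 to 65.1) at E18.5. Before thinning the shares were 83.5% at P10 and 91.9% at E18.5. In blood-lineage cells without alveolar RNA the thinned shares were 14.5% (12.4 to 16.8) at P10 and 25.8% (21.4 to 30.7) at E18.5. Epcam was thus found in more AT2-like than blood-lineage cells of either library.

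The variance of Epcam counts per thinned cell was close to the mean in AT2-like cells, as in random draws from 1 level. With so few UMIs per cell, moderate differences between cells would add little to this value, so it cannot show that all cells had 1 level. It was 1.06 times the mean in AT2-like cells at P10 and 1.04 times at E18.5. In neuroendocrine-like cells, as given above, it was 3.42 times.

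**Figure D2:**
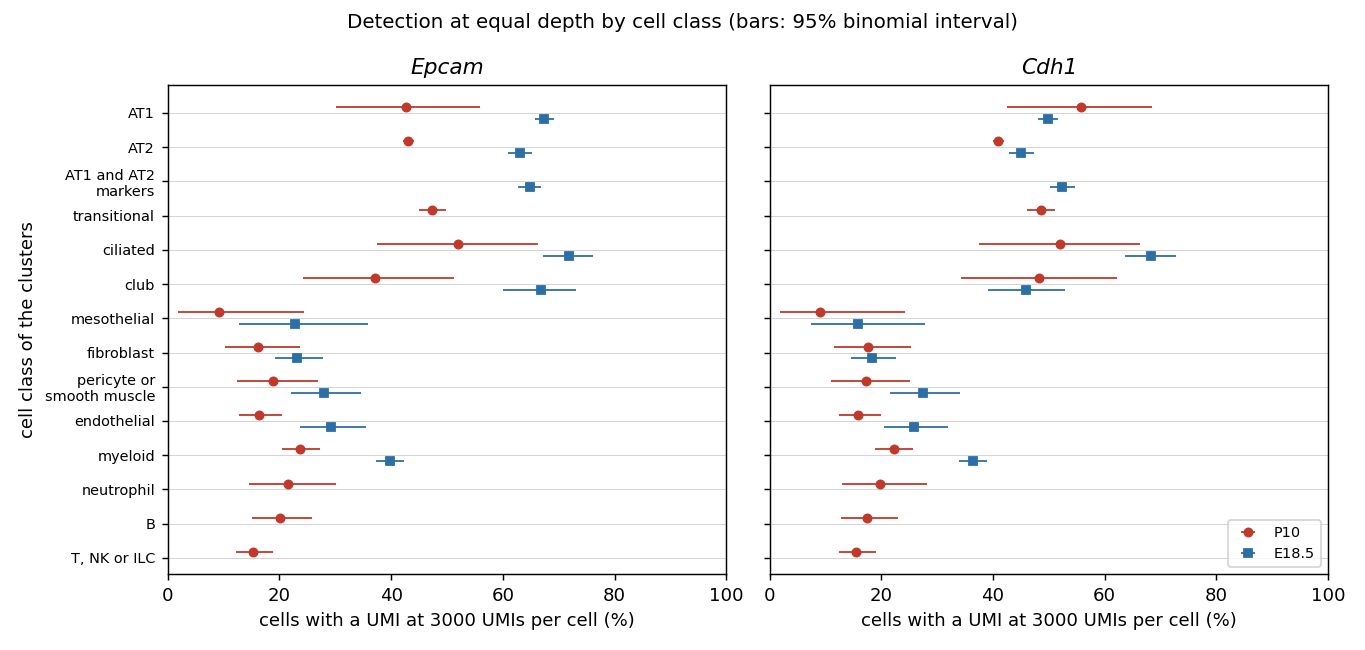
Percent of cells with at least 1 UMI of Epcam (left) or Cdh1 (right) after thinning to 3000 UMIs (x axis), by cell class (y axis), with P10 as red circles above E18.5 as blue squares and 95% binomial intervals as bars. For Epcam the share in AT2-like cells is 43.1% at P10 and 63.0% at E18.5, and the blood-lineage classes are not at 0.

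By CPM, the Cdh1 level of AT2-like cells differed less between the time points than that of Epcam, but not against genes of similar length. In AT2-like cells E-cadherin transcripts stood at 187 CPM (185 to 190) at P10, against 218 CPM (212 to 224) at E18.5, a ratio of 0.858 (0.831 to 0.886). Against genes of the same length decile the ratio was 0.601 for Cdh1 and 0.590 for Epcam. The direction of the Cdh1 difference was not stable, since taking off the level of blood-lineage cells, 81.9 CPM at P10 and 135 CPM at E18.5, gave 1.26. The thinned share of AT2-like cells with a Cdh1 UMI was 40.9% (39.9 to 42.0) at P10 and 45.1% (42.9 to 47.3) at E18.5. In blood-lineage cells without alveolar RNA it was 14.7% (12.5 to 17.0) at P10 and 24.4% (20.1 to 29.2) at E18.5.

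The number of Cdh1 UMIs per Epcam UMI does not depend on the library totals, although the length adjustment just given brings the 2 genes together. AT2-like cells held 0.966 UMIs of Cdh1 (0.948 to 0.985) for each UMI of Epcam at P10 and 0.631 (0.608 to 0.654) at E18.5. AT1-like cells held 1.15 (0.934 to 1.43) at P10 and 0.684 (0.662 to 0.707) at E18.5. Ciliated-like cells held 1.15 (0.979 to 1.35) at P10 and 0.907 (0.860 to 0.957) at E18.5. The blood-lineage cells without alveolar RNA held 1.03 (0.925 to 1.14) at P10 and 0.891 (0.808 to 0.984) at E18.5. The value was higher at P10 in these 4 sets of cells, and among them the intervals of the time points overlapped in the blood-lineage cells only. Pericyte or smooth muscle-like cells held 0.787 (0.608 to 1.02) at P10 and 0.795 (0.687 to 0.920) at E18.5, so the value was not higher at P10 in every class. Club-like cells held 1.49 (1.29 to 1.72) at P10 and 0.498 (0.450 to 0.551) at E18.5, subject to the limit on their Cdh1 level at P10 described with the order of classes.

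**Figure D3:**
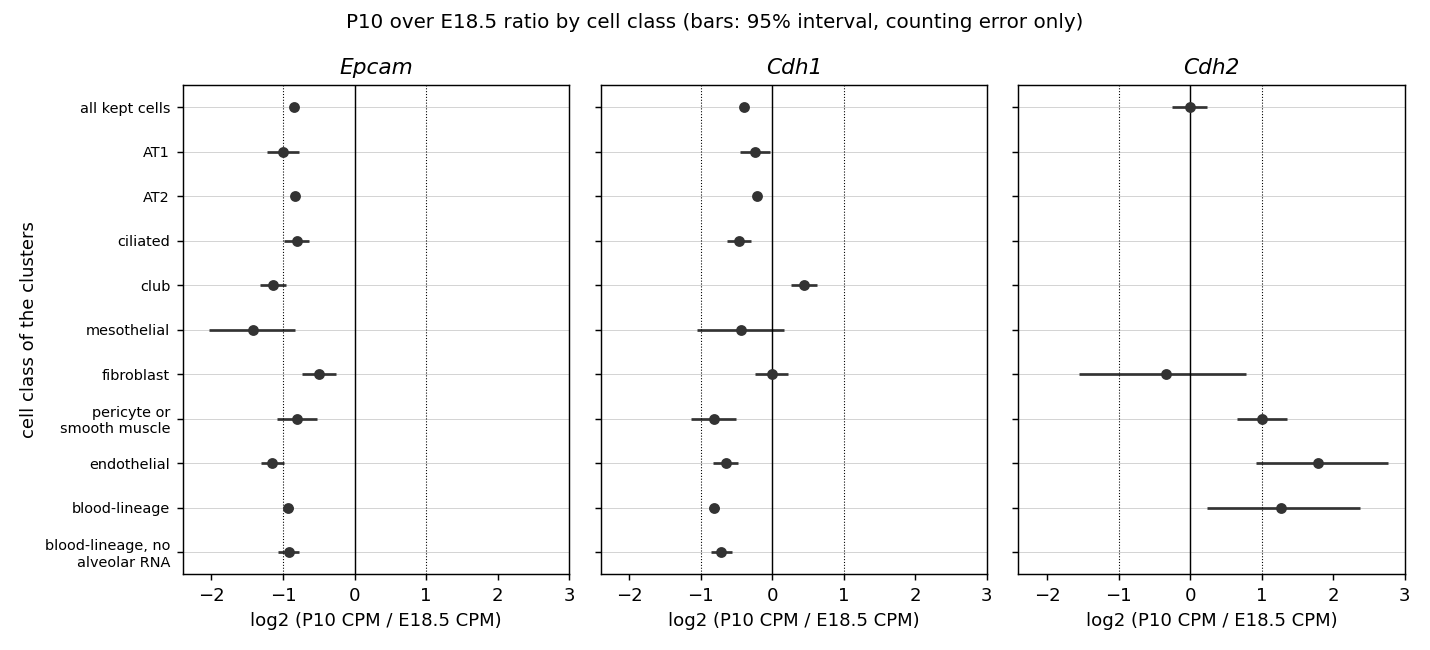
P10 over E18.5 ratio of CPM on the log2 scale (x axis) by cell class (y axis), with 95% intervals for counting error as bars, a solid line at no difference and dotted lines at 2-fold, for classes with at least 10 UMIs of the gene in each library. Epcam lies left of the solid line in each set of cells, with 0.560 as a ratio in AT2-like cells. Cdh2 lies right of it in pericyte or smooth muscle-like and endothelial-like cells.

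Cdh1 was highest in ciliated-like cells of both libraries, at 294 CPM (263 to 328) at P10 and 407 CPM (391.5 to 423) at E18.5. That was 1.57-fold (1.41 to 1.75) the AT2-like level at P10 and 1.87-fold (1.78 to 1.96) at E18.5, short of 2-fold in both. After ciliated-like cells, the order at P10 was club-like (272 CPM, 248 to 298), transitional (229 CPM, 223 to 235), AT1-like (219 CPM, 189 to 251.5) and AT2-like (187 CPM). The intervals of ciliated-like and club-like cells overlapped, as did those of AT1-like cells with each of club-like, transitional and AT2-like cells. The AT1-like ratio of P10 over E18.5 was 0.844 (0.728 to 0.974). At E18.5 the order was ciliated-like, neuroendocrine-like (263 CPM, 213 to 321), mixed AT1 and AT2 (261 CPM, 256 to 266), AT1-like (259 CPM, 252 to 266), AT2-like (218 CPM) and club-like (200 CPM, 184 to 217). The levels from neuroendocrine-like to AT1-like did not differ beyond counting error.

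Club-like cells were the class in which Cdh1 was higher at P10, with a ratio of 1.36 (1.20 to 1.54). The value rests on deep cells. Without the deepest 5% of cells in each library, 28 of the 56 club-like cells at P10 were left, their Cdh1 level was 148 CPM and the ratio was 0.728. No direction is therefore given for Cdh1 in these cells. For Epcam the same step changed the club-like ratio only to 0.460.

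Among alveolar cells of E18.5, AT1-like cells had 1.19-fold (1.14 to 1.23) the Cdh1 level of AT2-like cells. The 3 AT1-like clusters lay between 215 and 331 CPM, the highest being a cluster of 685 cells with a median of 1984 UMIs. That cluster was led by Lars2, Gm42418 and Camk1d, as were clusters of shallow cells that stayed unnamed. The other AT1-like clusters had 281 CPM at a median of 6090.5 UMIs and 215 CPM at a median of 4839 UMIs. The part of depth in these levels was not tested. With a stricter cell filter (1000 genes, 2000 UMIs, 10% mitochondrial), which left 1485 AT1-like cells, the Cdh1 level was 212 CPM in AT1-like and 216 CPM in AT2-like cells. The AT1-like excess was then gone. That filter changed several limits and the clustering at once, and the part of each was not tested.

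Over 46 clusters of at least 50 cells, 23 from each library, Epcam and Cdh1 varied together, with a Pearson correlation of log2(CPM + 1) of 0.90 (0.95 within P10 and 0.87 within E18.5). Clusters of a library share its free RNA and depth, so the correlation is a description. Of 6573 genes compared, those most like Epcam were Cldn7 (0.97), the tight-junction gene whose protein binds EpCAM, Cldn3 (0.96), another claudin, Rac3 and Tmc4 (0.94 each) and Spint2 (0.93), a protease inhibitor. Those most like Cdh1 were Ripk4 (0.93), a kinase of epithelia, Cldn7 (0.91), Epcam (0.90), Slc44a3 (0.90) and Arhgef28 (0.89).

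**Figure D4:**
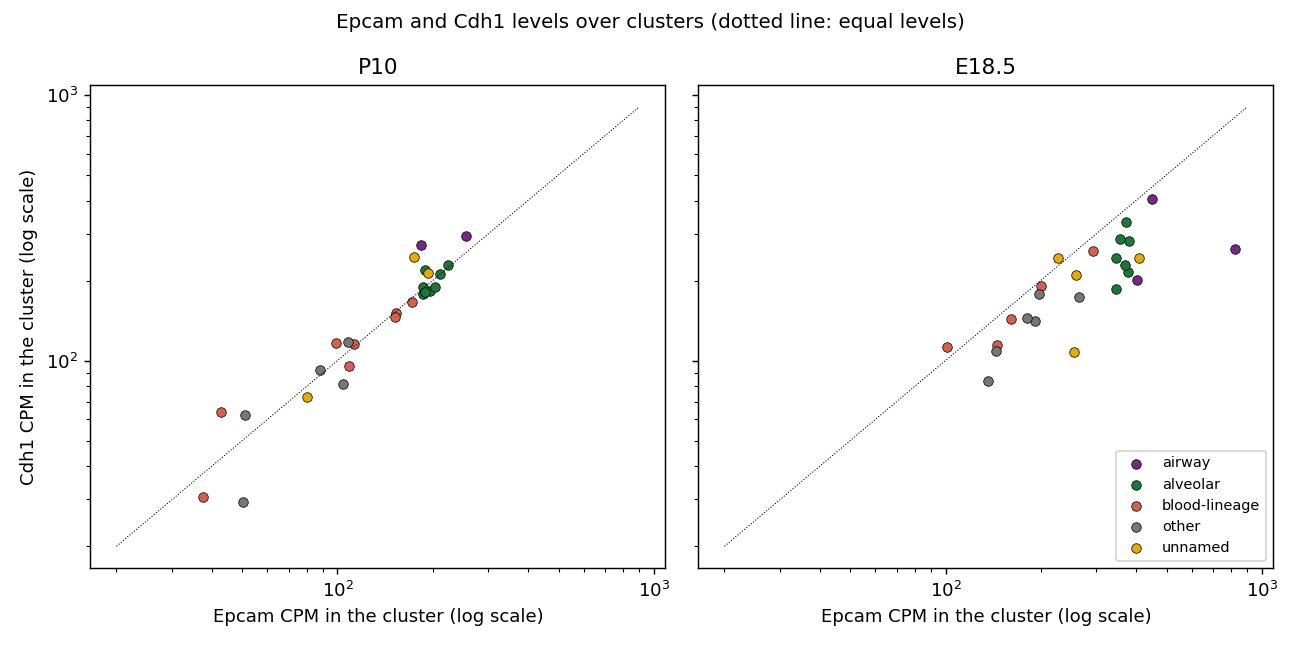
Epcam CPM (x axis, log scale) and Cdh1 CPM (y axis, log scale) of each cluster, with P10 on the left and E18.5 on the right, coloured by the kind of cell and with a dotted line where both values are the same. Clusters with an alveolar name lie near the line at P10 and to the right of it at E18.5, where their Epcam spans only 346 to 381 CPM.

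In AT2-like cells, co-detection of the 2 genes was close to what separate draws give. At 3000 UMIs, 17.4% of AT2-like cells at P10 had a UMI of both, against 17.6% from the product of the separate shares. At E18.5 the values were 27.7% and 28.4%. Neither gene was detected in 33.4% of AT2-like cells at P10 and in 19.6% at E18.5. Over all kept cells, where classes are mixed, both were found in 16.04% at P10, against a product of 14.97%, and in 28.7% at E18.5, against 26.8%. In blood-lineage cells without alveolar RNA both were found in 3.22% at P10, against a product of 2.13%, and in 8.43% at E18.5, against 6.32%. Endothelial-like cells of E18.5 had 12.97%, against 7.60%. Of the named classes outside the epithelium, only mesothelial-like cells of P10 went the other way, with 0%, against 0.826%. The cause of these differences was not tested.

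Cdh2 was highest in pericyte or smooth muscle-like cells of both libraries and was near 0 in the alveolar epithelium. An unnamed P10 cluster of 181 cells with markers of both pericyte or smooth muscle and fibroblast had only 5.54 CPM (2.66 to 10.2). In pericyte or smooth muscle-like cells, the mural cells that wrap vessels and airways, N-cadherin transcripts stood at 111 CPM (94.2 to 131, 151 UMIs in 135 cells) at P10 and at 55.4 CPM (46.3 to 65.8, 130 UMIs in 231 cells) at E18.5. In AT2-like cells they stood at 0.351 CPM (0.250 to 0.480) at P10 and 0.367 CPM (0.159 to 0.723) at E18.5, a ratio of 0.957 (0.441 to 2.37). Over all kept cells the ratio was 0.995 (0.842 to 1.18).

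The pericyte or smooth muscle-like level was 2.01-fold (1.58 to 2.56) higher at P10 than at E18.5. In that comparison 17.4% of measured genes were at least 2-fold higher at P10, so a call of this size was common. Scaling by the median ratio of all genes gave 1.85, and setting Cdh2 against genes of similar length gave 1.21, so the 2-fold call was lost under both. The thinned share of these cells with a Cdh2 UMI was 26.2% (18.7 to 34.97) at P10 and 17.9% (12.9 to 23.8) at E18.5, with overlapping intervals. Endothelial-like cells, which line the vessels, had 11.6 CPM (9.07 to 14.6) at P10 and 3.37 CPM (1.80 to 5.77, 13 UMIs) at E18.5. Their ratio was 3.44 (1.89 to 6.78), where 13.9% of measured genes were at least 2-fold higher. With coarser clusters, at a Leiden resolution of 0.5, the endothelial-like level at P10 was 24.03 CPM.

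Within a library, the Cdh2 level of pericyte or smooth muscle-like cells was 21.1-fold (11.1 to 44.8) that of fibroblast-like cells at P10 and 8.33-fold (5.40 to 13.3) at E18.5. Against endothelial-like cells it was 9.58-fold (7.18 to 12.9) at P10 and 16.4-fold (9.28 to 31.7) at E18.5. Neuroendocrine-like cells at E18.5 had 44.3 CPM (25.3 to 71.9) of Cdh2 from 16 UMIs (77.9 CPM without the deepest 5% of cells), so their interval overlapped that of the pericyte or smooth muscle-like cells. They were the only epithelial class of E18.5 above 10 CPM, and they held Cdh1 as well, at 263 CPM. Ciliated-like cells at E18.5 had 3.27 CPM (2.02 to 4.998).

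Cdh2 differed from Epcam and Cdh1 in its background. In blood-lineage cells without alveolar RNA it had 2 UMIs in 1364 cells at P10 and 3 UMIs in 368 cells at E18.5. Over all blood-lineage cells it had 24 UMIs (1.25 CPM) at P10 and 13 UMIs (0.517 CPM) at E18.5. That ratio was 2.41 (1.18 to 5.16), at levels below the 10 CPM needed for a call. At P10, 18 of these UMIs lay in a myeloid-like cluster of 213 cells carrying alveolar RNA, at 3.53 CPM (2.09 to 5.58). B-like and T, NK or ILC-like cells at P10 had 0 UMIs in 884 cells. In the 717 of these cells that were thinned to 3000 UMIs, the count of 0 allows a share of up to 0.418% of cells with a UMI. The genes whose level over clusters was most like that of Cdh2 were Postn and Gucy1a1 (0.86 each), Pcdh7 and Gucy1b1 (0.84 each) and Pde5a (0.82). Postn encodes the matrix protein periostin, and Gucy1a1, Gucy1b1 and Pde5a encode the nitric oxide receptor subunits and the phosphodiesterase of the cyclic GMP system.

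Cdh3 was scarce, with 245 UMIs over all kept cells at P10 and 564 at E18.5. P-cadherin transcripts stood at 1.43 CPM (1.26 to 1.62) at P10 and at 4.11 CPM (3.78 to 4.47) at E18.5, a ratio of 0.349 (0.299 to 0.406). Neither level reached the 10 CPM needed to count as measured, so no call was made. In AT2-like cells the ratio was nearer to 1, at 0.673 (0.487 to 0.945), with 1.51 CPM (1.29 to 1.76) at P10 and 2.25 CPM (1.66 to 2.97) at E18.5. The AT2-like level at E18.5 was not above that of blood-lineage cells without alveolar RNA, 2.64 CPM (1.48 to 4.36).

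The highest Cdh3 level was in mesothelial-like cells, the lining of the lung surface, in both libraries. They had 9.57 CPM (3.51 to 20.8, 6 UMIs in 33 cells) at P10 and 17.4 CPM (9.24 to 29.7, 13 UMIs in 57 cells) at E18.5. Both intervals overlapped that of the next class. This was pericyte or smooth muscle-like cells at P10 (2.21 CPM, 0.456 to 6.46) and neuroendocrine-like cells at E18.5 (8.30 CPM, 1.71 to 24.3). Counts this low do not separate the time points, with a ratio of 0.552 (0.172 to 1.56). Within E18.5, AT1-like cells had 5.94 CPM (4.98 to 7.04), which was 2.64-fold (1.89 to 3.74) the AT2-like level. Both levels lay below the 10 CPM needed for a call. Of the genes that reached 10 CPM in that comparison, 15.7% were at least 2-fold higher. Myeloid-like cells of E18.5, clusters with alveolar RNA included, had 4.53 CPM of Cdh3. With the stricter cell filter the AT1-like level was 4.58 CPM. The genes most like Cdh3 over clusters were Adamtsl1 (0.79), Cep170b (0.78), Lama5 (0.74), a laminin chain of basement membranes, Bcam (0.72), a laminin receptor, and Pard6b (0.70), a polarity gene.

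Cdh16, the gene that drove the label, had 131 UMIs over all kept cells at P10 and 351 at E18.5. Kidney-specific cadherin transcripts did not mark 1 class. In AT2-like cells they stood at 0.757 CPM (0.604 to 0.937, 84 UMIs) at P10 and at 2.39 CPM (1.78 to 3.13, 52 UMIs) at E18.5, a ratio of 0.317 (0.222 to 0.457) below the 10 CPM needed for a call. AT1-like cells had 2.24 CPM (0.271 to 8.10, 2 UMIs) at P10 and 2.82 CPM (2.17 to 3.60) at E18.5, and transitional cells of P10 had 0.873 CPM (0.541 to 1.33). The stricter cell filter lowered the AT1-like level of E18.5 to 1.29 CPM.

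These levels were not clear of the background. Blood-lineage cells without alveolar RNA had 0.550 CPM (0.179 to 1.28, 5 UMIs) at P10 and 1.41 CPM (0.608 to 2.78, 8 UMIs) at E18.5. The AT2-like level was 1.38-fold (0.567 to 4.35) that level at P10 and 1.69-fold (0.799 to 4.13) at E18.5, and both intervals held 1. The clearest excess was in an unnamed cluster of 382 cells at E18.5, led by Sprr1a and by antioxidant genes such as Srxn1, Gclc and Gpx2, with 6.17 CPM (4.44 to 8.33) from 42 UMIs, a cluster picked out after its value was seen. Ciliated-like and club-like cells at P10 had 0 UMIs in 69 and 56 cells. The genes most like Cdh16 over clusters were Prcd and Arl6ip6 (0.73 each), Ndnf and Scd2 (0.71 each), but within 1 library these correlations lay only between 0.09 and 0.63.

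Of 35 other cadherin and protocadherin-like genes, 15 reached 10 CPM in at least 1 class at P10 and 13 at E18.5. The vessel cadherin Cdh5 was highest in endothelial-like cells, at 630 CPM (610 to 650) at P10 and 627 CPM (603 to 653) at E18.5. Cdh11, a cadherin of mesenchyme, was highest in fibroblast-like cells, at 337 CPM (312 to 364) at P10 and 280 CPM (263 to 297) at E18.5. Cdh6 followed Cdh2, with 46.4 CPM (35.7 to 59.4) at P10 and 37.1 CPM (29.7 to 45.7) at E18.5 in pericyte or smooth muscle-like cells.

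Cdhr3 and Cdhr4 were highest in ciliated-like cells. Cdhr3, which encodes the entry receptor of rhinovirus C in human airway cells, stood at 216 CPM (190 to 245) in them at P10 and at 173 CPM (163 to 183) at E18.5. Its next highest class had 0.94 CPM at P10 and 2.93 CPM at E18.5. Cdhr4 stood at 85.2 CPM (69.0 to 104) at P10 and at 75.5 CPM (68.9 to 82.5) at E18.5 in the same cells. In AT2-like cells only Fat1 and Celsr1, large cadherins of polarity and tissue shape, reached 10 CPM. Fat1 stood at 69.6 CPM at P10 and 62.8 CPM at E18.5, a ratio of 1.11 (1.05 to 1.17), and Celsr1 at 29.5 CPM and 24.4 CPM, a ratio of 1.21 (1.11 to 1.33).

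The catenins and other partners of the adherens junction were listed beside the 5 genes. In AT2-like cells 17 of 21 were measured, 4 were at least 2-fold higher at P10 and 0 at least 2-fold lower, where 15.5% of all 8366 measured genes were higher and 9.37% lower. Their median log2 ratio was 0.56, beside 0.23 over all measured genes. The 4 were Plekha7, an adherens junction anchor of microtubules, Lima1, an actin binder, Vcl, the tension-bearing vinculin, and Ctnnd1, p120-catenin. Vcl stood at 415 CPM at P10 and 182 CPM at E18.5 (2.28, 2.21 to 2.36) and Ctnnd1 at 175 CPM and 86.1 CPM (2.03, 1.93 to 2.13). Plekha7 stood at 33.7 CPM at P10 and 13.9 CPM at E18.5 (2.43, 2.16 to 2.74) and Lima1 at 53.2 CPM and 22.5 CPM (2.36, 2.15 to 2.60). Ctnna1, alpha-catenin, had a ratio of 1.47 (1.44 to 1.504) and Ctnnb1, beta-catenin, a ratio of 1.06 (1.03 to 1.09), neither past 2-fold. In blood-lineage cells without alveolar RNA, Vcl stood at 189 CPM at P10 and 178 CPM at E18.5, and Ctnnd1 at 90.1 CPM and 86.8 CPM. Scaling by the median ratio of all genes left 2 adherens junction partners past 2-fold.

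Over all kept cells the same list was mixed. There 19 of 21 members were measured, 3 were at least 2-fold higher at P10 and 4 lower, where 12.1% of all measured genes were higher and 13.5% lower, and the median log2 ratio was -0.01, beside 0.02 over all genes. The 3 higher were Nectin1 (2.11, 2.04 to 2.18) and Nectin4 (2.11, 1.97 to 2.25), which encode immunoglobulin-like adhesion molecules, and Plekha7 (2.19, 2.07 to 2.31). The 4 lower were Ajuba (0.126, 0.115 to 0.138), Nectin3 (0.332, 0.323 to 0.341), Ctnnd2 (0.392, 0.379 to 0.404), delta-catenin, and Tjp1 (0.488, 0.480 to 0.497), the scaffold protein of tight junctions. All kept cells differ in class shares between the libraries, and the part of those shares in these ratios was not tested.

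Of the genes tied to Epcam, 14 of 17 were measured in AT2-like cells, 3 were at least 2-fold lower at P10 and 1 higher, against 9.37% of all measured genes lower and 15.5% higher. Their median log2 ratio was -0.16, beside 0.23 over all genes. Tspan8 stood at 73.0 CPM at P10 and 393 CPM at E18.5 (0.186, 0.180 to 0.191), and Cd9 at 202 CPM and 773 CPM (0.261, 0.256 to 0.266). Both encode tetraspanins that associate with EpCAM. Tspan8 and Cd9 were also lower at P10 in blood-lineage cells without alveolar RNA, at 28.4 and 602 CPM, against 444.04 and 2298 CPM at E18.5. Cldn7, encoding the claudin that binds EpCAM, had a ratio of 0.593 (0.570 to 0.616), close to that of Epcam. Cd44, a hyaluronan receptor found with EpCAM and tetraspanins, was the 1 higher, at 81.5 CPM at P10 and 30.0 CPM at E18.5 (2.72, 2.51 to 2.95), below its level in blood-lineage cells of both libraries.

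Snail, Zeb and Twist factors, known to lower E-cadherin during epithelial to mesenchymal transition, and the mesenchymal genes Vim and Fn1 were mostly too scarce to measure in AT2-like cells, where 3 of 9 list members reached 10 CPM, with a median log2 ratio of -0.72 beside 0.23 over all genes. Zeb2 stood at 13.1 CPM at P10 and 11.9 CPM at E18.5, and in blood-lineage cells without alveolar RNA at 745 CPM at P10 and 667 CPM at E18.5. Fn1, fibronectin, was the 1 gene past 2-fold, where 9.37% of all measured genes were lower, and stood lower at P10 with 3.22 CPM against 19.9 CPM at E18.5 (0.162, 0.140 to 0.187). Its blood-lineage level was 44.8 CPM at P10 and 331 CPM at E18.5.

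Of 14 regulators of epithelial genes, 9 were measured in AT2-like cells, with a median log2 ratio of 0.36 beside 0.23 over all genes. There was 1 past 2-fold higher and 1 past 2-fold lower at P10, against 15.5% of all measured genes higher and 9.37% lower. Elf3, an ETS factor of epithelia, stood at 40.8 CPM at P10 and 96.5 CPM at E18.5 (0.423, 0.402 to 0.446). Grhl2, a grainyhead factor known to act on Cdh1 and Epcam, had a ratio of 1.90 (1.76 to 2.05), with 65.6 CPM at P10 and 34.6 CPM at E18.5, short of a call.

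**Figure D5:**
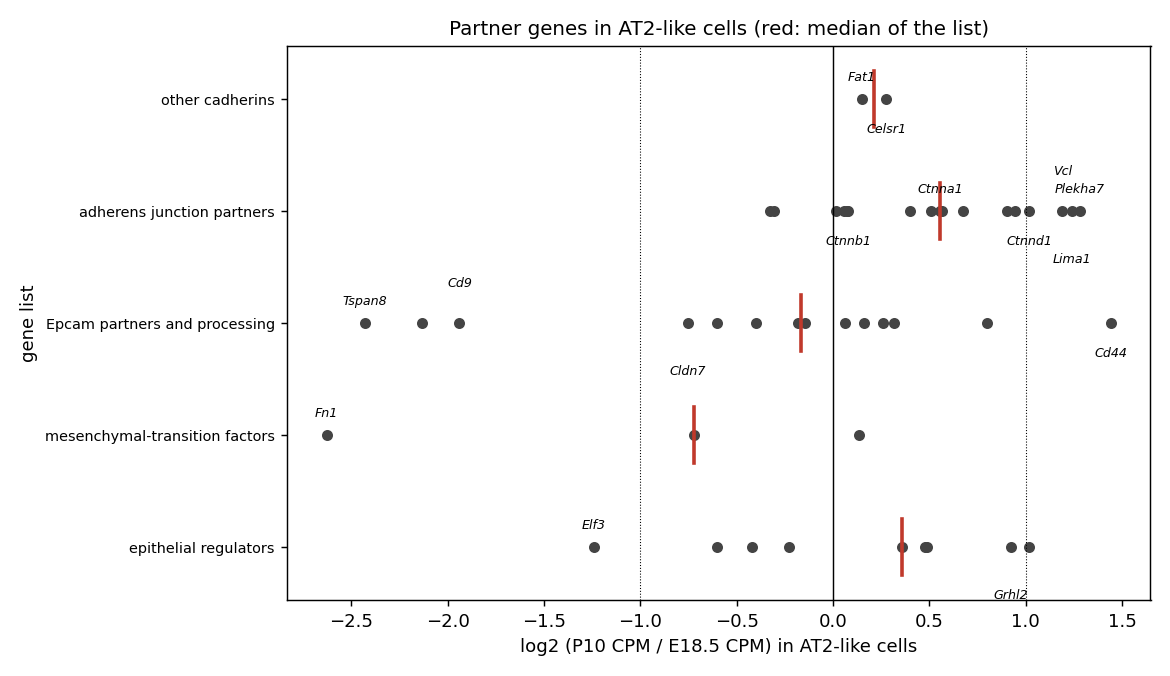
P10 over E18.5 ratio on the log2 scale (x axis) in AT2-like cells for measured members of 5 gene lists (y axis), 1 point per gene, with red bars at the median of each list and dotted lines at 2-fold. Adherens junction partners have a median of 0.56 with Plekha7, Lima1, Vcl and Ctnnd1 past the right line, while Tspan8 and Cd9 of the list tied to Epcam lie past the left one.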

How the data were processed

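Droplet-based 3' single-cell RNA sequencing of tdTomato-positive cells sorted within the CD326-stained population gave 1 library at P10 and 1 at E18.5. The deposited matrices hold raw UMI counts. Per the file headers they were written by cellranger 7.0.1. The submitters' processing notes give the build as mm10 and list Seurat 4.0.0 with no role. Counting of introns is not told. The deposited gene and barcode lists carry no measurement.

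The 5 genes, the gene lists and the markers were chosen with earlier results of these data known, and the rule that names clusters was set after the clusters were seen, including its exemption of globin and transitional markers for alveolar names and the splitting of the cluster that held club and ciliated cells. Computations used Python 3.11.15, scanpy 1.11.5, igraph 0.11.9, scikit-learn 1.9.0, pandas 2.3.3, scipy 1.17.1 and numpy 2.4.6, with figures from matplotlib 3.10.9. Each library was clustered alone without the 5 genes (2000 variable genes, 30 principal components, 15 neighbours, Leiden resolution 1), giving 26 clusters at P10 and 25 at E18.5. A class needed at least 3 raised markers and 35% of its list, and alveolar classes a level of at least 0.5 for their markers, where 1 is the top cluster. A cluster was called mixed AT1 and AT2 where both lists reached 0.25 with at least 3 raised markers each, a limit on raised markers that was added after the values were seen and without which the AT1-like cluster of P10 would be called mixed. Other clusters stayed unnamed, 2.70% of cells at P10 and 7.22% at E18.5. No doublet caller was run.

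UMIs were summed by class. Sums carry exact Poisson, shares exact binomial (Clopper-Pearson) and ratios exact conditional binomial intervals at 95%. Genes counted as measured from 10 CPM in 1 of the sums and as called at 2-fold. Limits for a count of 0 are those of 3 counts. The ratio and thinning steps were tested on simulated data. The partner genes named were those past 2-fold, up to 4 each way per list, with the catenins whatever their values, and for each member the 5 genes of at least 20 CPM most correlated with it over clusters. Cldn7, Grhl2, Zeb2, Cd44's levels elsewhere and the other cadherins by class were chosen after their values were seen. A few genes that this rule names are not reported here. Gene positions came from GENCODE vM21, in which 32158 of 32285 gene identifiers matched.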

Additional observations from a re-analysis of the deposited data

How the results depend on the processing

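Of 360 values recomputed under alternative settings, 269 stayed within the counting interval, or within 1.5 times for counts of genes, and 91 moved. The Epcam ratio in AT2-like cells was 0.490 with median-of-ratios scaling, 0.590 against genes of the same length decile and 0.585 with the blood-lineage level taken off. The Cdh1 ratio there was 0.751 with median-of-ratios scaling, 0.601 against the length decile, 0.797 at Leiden resolution 2 and 1.26 with the blood-lineage level taken off. The Cdh2 ratio in pericyte or smooth muscle-like cells was 1.21 against the length decile. The cause was not tested in any of these. Without the deepest 5% of cells, Cdh2 in these cells at P10 was 131 CPM and Cdh1 in ciliated-like cells at E18.5 was 425 CPM. Detection moved with the thinning depth by construction. At 1500 UMIs, Epcam was found in 22.3% of kept cells at P10 and 36.6% at E18.5, and Cdh1 in 21.7% and 27.4%. At 6000 UMIs, Epcam was found in 64.4% at P10 and 82.0% at E18.5, and Cdh1 in 62.3% and 71.0%. At 3000 UMIs, Epcam was found in 39.4% at P10 and 58.6% at E18.5, and Cdh1 in 38.0% and 45.7%. Epcam in blood-lineage cells was 79.8 CPM at P10 and 151 CPM at E18.5 without clusters carrying alveolar RNA, 95.7 CPM and 201 CPM without the deepest cells, and 108 CPM in B-like and T, NK or ILC-like cells of P10. Its ratio in blood-lineage cells without alveolar RNA, 0.529, ran from 0.258 with the stricter cell filter to 0.676 at Leiden resolution 0.5. At that resolution no pericyte or smooth muscle-like or mesothelial-like cluster was named at P10, so those values could not be recomputed there, and no AT1-like cluster was named at P10 with the stricter cell filter, at Leiden resolution 2 or with the 5 genes left among the clustered ones. Of the adherens junction partners, 2 were at least 2-fold higher at P10 with median-of-ratios scaling, in place of 4. That scaling shifts the AT2-like ratios by 0.19 and those of all kept cells by 0.018 on the log2 scale. Depth limits Cdh16 and Cdh3, which had under 20 UMIs in most classes outside the alveolar ones. No paired analysis was possible because each time point has 1 library.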

Other observations

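Several unnamed clusters belong to no class compared above. A cluster of 181 cells at P10 held markers of both pericyte or smooth muscle-like and fibroblast-like cells and stayed unnamed, with leading genes Aspn, Eln and Hhip. It had 5.54 CPM of Cdh2, 80.3 CPM of Epcam and 73.1 CPM of Cdh1. Clusters of shallow cells led by Lars2, Gm42418 and Camk1d were present in both libraries and were unnamed at P10 (178 cells) and, in part, at E18.5 (234 cells). Another such cluster at E18.5 was the AT1-like one of 685 cells. Cdh1 stood at 245 CPM in the unnamed P10 cluster and 243 CPM in the unnamed E18.5 one, and Epcam at 175 CPM and 227 CPM. An unnamed cluster of 215 cells at E18.5 led by the neutrophil genes S100a9 and S100a8 had 258 CPM of Epcam and 210 CPM of Cdh1.

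Cdh4, which encodes retinal cadherin, was the other cadherin past 2-fold over all kept cells, at 15.9 CPM at P10 and 4.83 CPM at E18.5 (3.30, 3.03 to 3.60). It was highest in endothelial-like cells of both libraries, at 45.5 CPM (40.3 to 51.1) at P10 and 14.0 CPM (10.52 to 18.3) at E18.5. AT2-like cells had 7.50 CPM of Cdh4 at P10 and 3.72 CPM at E18.5 (2.02, 1.60 to 2.57), below the 10 CPM needed for a call. The part of each class in the ratio over all kept cells was not tested. Cdh13, which encodes T-cadherin, was highest in pericyte or smooth muscle-like cells at P10, at 261 CPM (234 to 290), and in neuroendocrine-like cells at E18.5, at 158 CPM (119 to 204). Zeb1 stood at 46.6 CPM over all kept cells at P10 and at 8.41 CPM at E18.5 (5.54, 5.204 to 5.89), with 263 CPM and 5.11 CPM in blood-lineage cells without alveolar RNA, which at E18.5 held no cluster named as B-like or T, NK or ILC-like.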
